A study of Homo sapiens with 12 samples.

Results

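The genes described here are 7 immediate early genes of the EGR, NR4A and IER groups, EGR1, EGR3, EGR4, NR4A1, IER2, IER3 and IER5, chosen by gene symbol out of 14232 genes measured with a probe set of a single symbol. All 7 were measured, each by 1 probe set. Their RNA levels were followed in CCRF-CEM cells, an established human T-lymphoblastic leukaemia line, over 12 arrays in 4 groups of 3 biological replicates. One group was left untreated. AB61 was given at 250 nM, tubercidin at 550 nM and actinomycin D at 1 nM, each concentration being 5 times the IC50, and cells were taken after 3 h. AB61 is 7-(2-thienyl)-7-deazaadenosine, and tubercidin is 7-deazaadenosine, the same nucleoside without the thienyl group. Actinomycin D binds DNA and inhibits transcription. All groups were cultures of this 1 line in RPMI medium with serum, and no vehicle is described for the untreated cells, so an effect of a treatment cannot be told apart from that of a vehicle.

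Immediate early genes are transcribed within minutes of a stimulus from factors already present in the cell, without new protein synthesis, and their mRNAs are short-lived. Growth factor, stress and antigen receptor signals reach them through ERK and p38 kinases, serum response factor with its ETS partners, and CREB. In T cells EGR1, EGR3 and NR4A1 are known as genes that follow T cell receptor signals. EGR1, EGR3 and EGR4 encode zinc finger transcription factors that bind GC-rich sites. NR4A1 (Nur77) encodes an orphan nuclear receptor that acts in the response of thymocytes to strong receptor signals. IER2 and IER5 encode related nuclear proteins, and IER3 (IEX-1) encodes a stress-inducible regulator of cell survival.

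Levels are log2 RMA values, on which a difference of 1 is a 2-fold difference. They are compared between arrays for 1 gene at a time, since probe sets differ in brightness. Array medians lay between 6.58 and 6.72. Of 14 T lineage markers 13 were measured, among them CD3D at 12.38 and CD3E at 11.41, both parts of the T cell receptor complex, and the list's median moved between 9.32 and 9.73 from array to array. The medians of the other lists moved between 6.01 and 6.76 (B cell, 4 genes), 5.31 and 5.78 (myeloid, 4 genes), 5.07 and 5.64 (erythroid, 2 genes) and 5.94 and 6.36 (epithelial and fibroblast, 5 genes, with KRT8 at 9.72 and EPCAM at 2.41). Without detection calls these levels do not show which markers were present or absent, and no marker of any list passed the test in any comparison. Fewer cells of a type and less RNA per cell cannot be told apart in these bulk values, and a loss of RNA common to all genes cannot be seen after RMA.

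The 250 bases upstream of the start are shown for EGR1 and NR4A1, those of the 7 genes that varied most between arrays, and for EGR4, a member of the EGR family that varied less than EGR1 and EGR3. They are taken from RefSeq (GRCh38.p14), whose promoter table held 5 of the 7 genes, and are written 5′ to 3′ on the gene's strand. Capitals mark serum response elements (CArG boxes) and TGACG, the core of the cAMP response element, read on either strand. The EGR1 window is chr5:138465229-138465478 on the plus strand and the EGR4 window chr2:73293549-73293798 on the minus strand. For NR4A1 the table gives windows of separate starts, chr12:52022582-52022831 and chr12:52037465-52037714, both on the plus strand.
EGR1: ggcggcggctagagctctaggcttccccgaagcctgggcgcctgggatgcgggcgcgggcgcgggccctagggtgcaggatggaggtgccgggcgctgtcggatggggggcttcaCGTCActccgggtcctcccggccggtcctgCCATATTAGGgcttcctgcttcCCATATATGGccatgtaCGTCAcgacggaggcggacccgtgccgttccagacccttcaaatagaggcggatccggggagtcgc
EGR4: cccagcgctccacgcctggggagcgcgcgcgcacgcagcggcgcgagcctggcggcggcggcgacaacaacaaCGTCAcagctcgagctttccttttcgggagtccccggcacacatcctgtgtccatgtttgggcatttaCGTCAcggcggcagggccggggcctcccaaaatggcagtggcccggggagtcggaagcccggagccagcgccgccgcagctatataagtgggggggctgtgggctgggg
NR4A1, first window: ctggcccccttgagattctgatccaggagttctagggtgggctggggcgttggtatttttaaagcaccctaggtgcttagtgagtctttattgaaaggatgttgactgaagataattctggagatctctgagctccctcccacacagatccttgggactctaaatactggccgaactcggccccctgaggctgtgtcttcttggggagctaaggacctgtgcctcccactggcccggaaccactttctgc
NR4A1, second window: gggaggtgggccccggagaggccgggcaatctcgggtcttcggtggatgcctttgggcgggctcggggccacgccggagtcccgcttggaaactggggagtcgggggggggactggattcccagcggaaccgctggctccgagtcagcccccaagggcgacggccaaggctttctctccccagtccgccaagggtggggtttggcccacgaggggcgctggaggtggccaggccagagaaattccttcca

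EGR1 carried 2 CArG boxes, at 105 to 96 and 83 to 74 bases before the start, a motif present in 1.16% of 35116 promoter windows of the same length searched on both strands. It also carried 2 TGACG cores, at 135 to 131 and 66 to 62 bases, and 1 match to the EGR site GCGNGGGCG, at 198 to 190 bases. TGACG was present in 21.2% of the windows and EGR sites in 8.41%. EGR4 held 2 TGACG cores, at 177 to 173 and 109 to 105 bases, and IER2 held 1, at 140 to 136 bases, with an ETS core CCGGAAG at 27 to 21 bases (8.52% of windows). Neither NR4A1 window held a CArG box, a TGACG core or an EGR site. Only these windows of NR4A1 were searched, so motifs elsewhere in or near the gene would have been missed. The full element TGACGTCA (1.65% of windows) was found in none of the searched windows of these genes. These matches describe letters in the windows and were not tested as binding sites.

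In GRCh38.p14 coordinates, EGR1 lies on chromosome 5 from 138465479 to 138469303 and NR4A1 on chromosome 12 from 52022832 to 52059503. EGR3 lies on chromosome 8 from 22687659 to 22693480, and EGR4 on chromosome 2 from 73290929 to 73293548. IER2 spans 13150411 to 13154911 on chromosome 19, IER3 spans 30743199 to 30744547 on chromosome 6, and IER5 spans 181088700 to 181092900 on chromosome 1.

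Among untreated cells EGR1, NR4A1 and EGR3 differed widely from array to array, while the other 4 genes varied less. EGR1 was at 7.49, 8.85 and 10.69 in untreated replicates 1, 2 and 3, a 9.16-fold span. Its SD of 1.60 ranked 1st of the 14232 genes among untreated arrays, where the median gene had an SD of 0.13. NR4A1 was at 7.72, 8.57 and 9.79, a 4.21-fold span, and its SD of 1.04 ranked 4th. EGR3 was at 5.74, 6.49 and 7.17, a 2.68-fold span, and its SD of 0.71 ranked 38th. All of these were lowest in replicate 1 and highest in replicate 3.

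IER2 was at 7.08, 7.63 and 7.69 in untreated replicates 1, 2 and 3, with an SD of 0.33. IER3 was at 7.45, 7.94 and 7.75 (SD 0.25), and EGR4 at 6.31, 6.72 and 6.35 (SD 0.22). IER5 was at 7.58, 7.79 and 7.72, and its SD of 0.11 was below that of the median gene. Untreated replicate 1 was the lowest untreated array for all 7 genes, and the highest was replicate 3 for EGR1, EGR3, NR4A1 and IER2 and replicate 2 for EGR4, IER3 and IER5. With the treated groups counted too, replicate 1 was the lowest of its group in 4 groups for IER3. It was so in 3 groups for EGR1, EGR3, NR4A1 and IER5, in 2 for IER2 and in 1 for EGR4. Replicate 3 exceeded replicate 1 by a median of 0.60 over the 7 genes, against -0.04 over all genes, of which 39.5% were higher in replicate 3. Only 0.344% of all genes, 49 of them, were more than 2-fold higher in replicate 3 than in replicate 1, and these included EGR1 (3.20, the largest of all genes), NR4A1 (2.08, the next) and EGR3 (1.42). The cause of the spread was not tested.

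**Figure D1:**
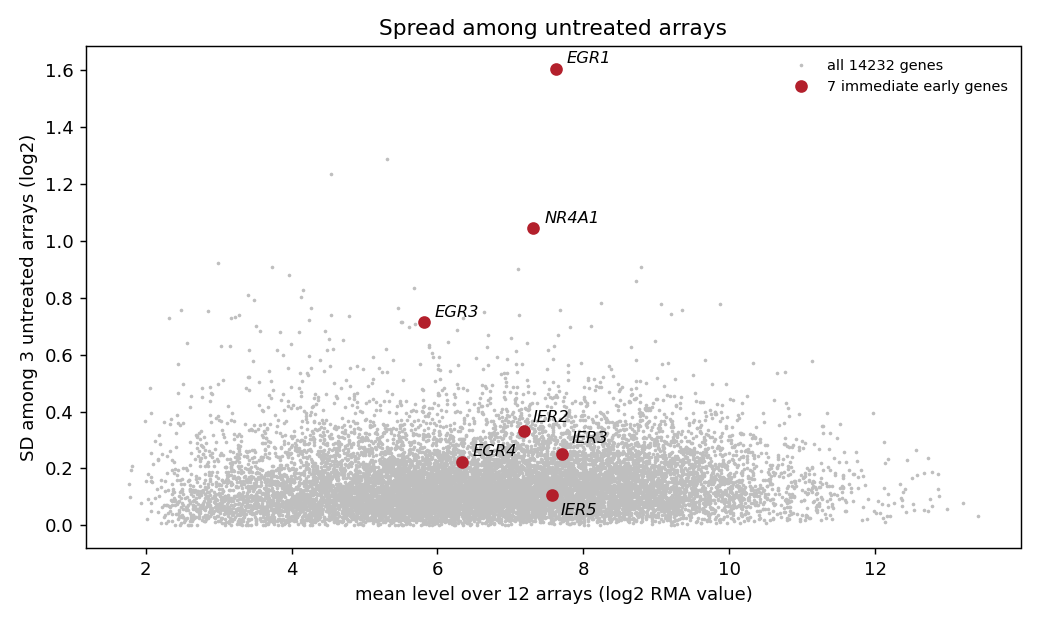
SD among the 3 untreated arrays (vertical axis, log2) against the mean level over 12 arrays (horizontal axis, log2 RMA value) for 14232 genes in grey and the 7 immediate early genes in red. EGR1 at 1.60, NR4A1 at 1.04 and EGR3 at 0.71 stand above nearly all genes, while IER5 at 0.11 lies within the bulk.

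For EGR1, NR4A1 and EGR3 the treated arrays were low and spread less than the untreated ones. EGR1 was at 7.35, 7.43 and 7.29 with AB61, at 6.78, 7.02 and 7.41 with tubercidin, and at 6.81, 7.08 and 7.24 with actinomycin D. All 9 treated arrays lay below all 3 untreated ones, the highest treated array being at 7.43 and the lowest untreated one at 7.49. That gap was far smaller than the spread among untreated arrays. NR4A1 was at 6.55, 7.09 and 7.05 with AB61, at 6.56, 6.79 and 7.13 with tubercidin, and at 6.78, 6.69 and 7.06 with actinomycin D. Again all 9 treated arrays lay below the untreated ones, here with the highest treated array at 7.13 and the lowest untreated one at 7.72. EGR3 was at 5.55, 5.82 and 5.87 with AB61, at 5.49, 5.78 and 5.63 with tubercidin, and at 5.41, 5.45 and 5.38 with actinomycin D. All 3 actinomycin D arrays lay below every untreated array, whereas the AB61 and tubercidin arrays overlapped untreated replicate 1.

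Treated and untreated arrays overlapped for EGR4 and the IER genes too, as they did for EGR3. IER2 ranged from 6.93 to 7.24 over the treated arrays with a median of 7.19. EGR4 ranged from 5.95 to 6.81 with a median of 6.24, IER5 from 7.25 to 7.70 with a median of 7.58, and IER3 from 7.45 to 8.02 with a median of 7.66. The median SD of the 7 genes was 0.33 among untreated arrays, where the median over all genes was 0.13. It was 0.17 with AB61 (0.19 over all genes), 0.17 with tubercidin (0.13) and 0.17 with actinomycin D (0.11).

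**Figure D2:**
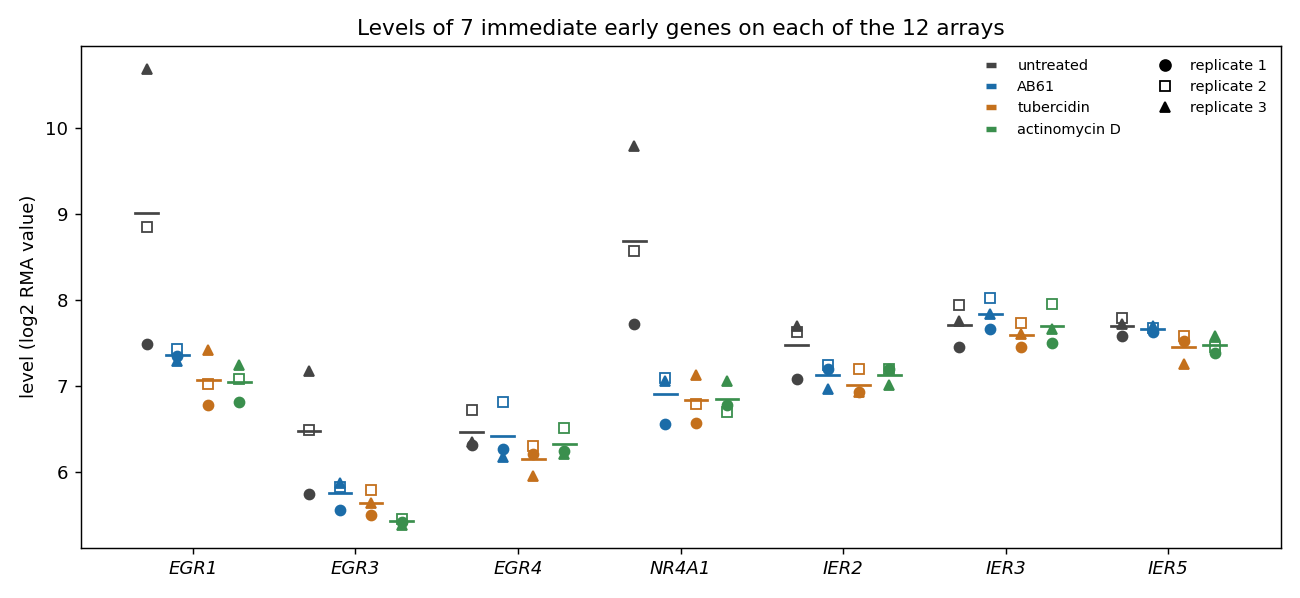
Level of each gene (vertical axis, log2 RMA value) on each of the 12 arrays, coloured by group and with the replicate number given by the marker shape; bars are group means. Untreated arrays of EGR1 run from 7.49 to 10.69 and of NR4A1 from 7.72 to 9.79, while the treated arrays of these genes lie between 6.78 and 7.43 and between 6.55 and 7.13.

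The question put to the treatments was which genes each of them changed against untreated cells. All 3 treatments were compared with the same untreated arrays, so a chance excess or deficit there enters every one of these comparisons. The limma fit used 1 spread per gene, shared by the 4 groups. EGR1, NR4A1 and EGR3 had SDs of 1.60, 1.04 and 0.71 among untreated arrays and of at most 0.32 in any treated group. For these genes the limma intervals against untreated cells are therefore too narrow and the p-values too small. In limma fitted on all genes, with Benjamini-Hochberg adjusted p-values and a threshold of 0.05, none of the 7 genes passed for AB61, tubercidin or actinomycin D alone. The share of all genes passing was 0.169% for AB61 (24 genes, or 193 with the replicate number as a block on all arrays and 11 with the block on AB61 and untreated arrays), 0.0913% for tubercidin and 0.119% for actinomycin D. At an unadjusted p under 0.05, 4 genes were lower with AB61 (EGR1, EGR3, NR4A1 and IER2; 6.25% of all genes), 5 with tubercidin (these and IER5; 3.53%) and 4 with actinomycin D (as for AB61; 4.50%). None of the 7 was higher at that level, compared with 5.82%, 5.27% and 4.89% of all genes. The median difference over the 7 genes was -0.34 for AB61, -0.45 for tubercidin and -0.34 for actinomycin D, against 0.04, -0.02 and 0.0024 over all genes.

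Averaged over the 3 treatments, 4 genes (EGR1, EGR3, NR4A1 and IER2) were lower at an unadjusted limma p under 0.05, as were 6.20% of all genes. NR4A1 was the only member of the 7 to pass the adjusted threshold in the fit without a replicate block. Its log2 difference was -1.84 (SE 0.31, 95% interval -2.50 to -1.18), a level 3.57-fold lower in treated cells, with a limma adjusted p of 0.0186 and all 9 treated arrays lower. That p-value and interval rest on the spread shared by the groups, which is smaller than the untreated spread of NR4A1 (SD 1.04). Both therefore overstate the precision, and no fit with a separate spread for each group was run. The background for this comparison was 1.05% of all genes passing in either direction and 0.443% passing as lower. The call did not hold without untreated replicate 2 (-1.90, adjusted p = 0.111) or without untreated replicate 3 (-1.29, adjusted p = 0.0647). Without replicate 1 it was -2.32. When all 22011 probe sets were tested the adjusted p was 0.0543.

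EGR1 had the largest average decrease of any gene, -1.86 (SE 0.44, interval -2.81 to -0.91), 3.63-fold, but missed the threshold, with a limma adjusted p of 0.0645. EGR3 differed by -0.87 (SE 0.21, interval -1.32 to -0.42), with an adjusted p of 0.0664. With the replicate number as a block in the limma fit both passed (adjusted p = 0.0232 for EGR1 and 0.0237 for EGR3). By the check described below, with a cut at a correlation of 0.1, only untreated and AB61 arrays were read as paired. Both also depended on which untreated arrays were kept. Without untreated replicate 1, EGR1 differed by -2.62 (adjusted p = 0.00581), EGR3 by -1.23 (adjusted p = 0.00581) and IER2 by -0.57 (adjusted p = 0.0398), so that 4 members passed. Without untreated replicate 3, EGR1 differed by -1.02 and EGR3 by -0.52, and no member passed. In an exact two-sided permutation test over the 220 ways of choosing 3 of 12 arrays, EGR1 and NR4A1 each gave p = 0.00455, the smallest value this design allows, EGR3 gave p = 0.0182 and IER2 p = 0.0273. These are unadjusted values, and EGR1 and NR4A1 were 2 of the 270 genes (1.90%) whose 9 treated arrays all lay below the untreated ones. The permutation test takes the arrays as exchangeable, although the treated ones come from 3 treatments and the 3 untreated ones spread more. Its p-values for EGR1, NR4A1, EGR3 and IER2 can therefore be too small as well.

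The remaining genes showed small differences. IER2 differed by -0.38 (SE 0.12, interval -0.65 to -0.11, adjusted p = 0.178). IER5 differed by -0.17 (interval -0.36 to 0.02, adjusted p = 0.472) and EGR4 by -0.17 (interval -0.47 to 0.14, adjusted p = 0.785). IER3 was the member with no average difference to speak of, at -0.001 (interval -0.27 to 0.27). The exact permutation p was 0.0909 for IER5, 0.3 for EGR4 and 0.982 for IER3. The EGR family therefore held both the gene with the largest average decrease and one whose interval included 0.

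**Figure D3:**
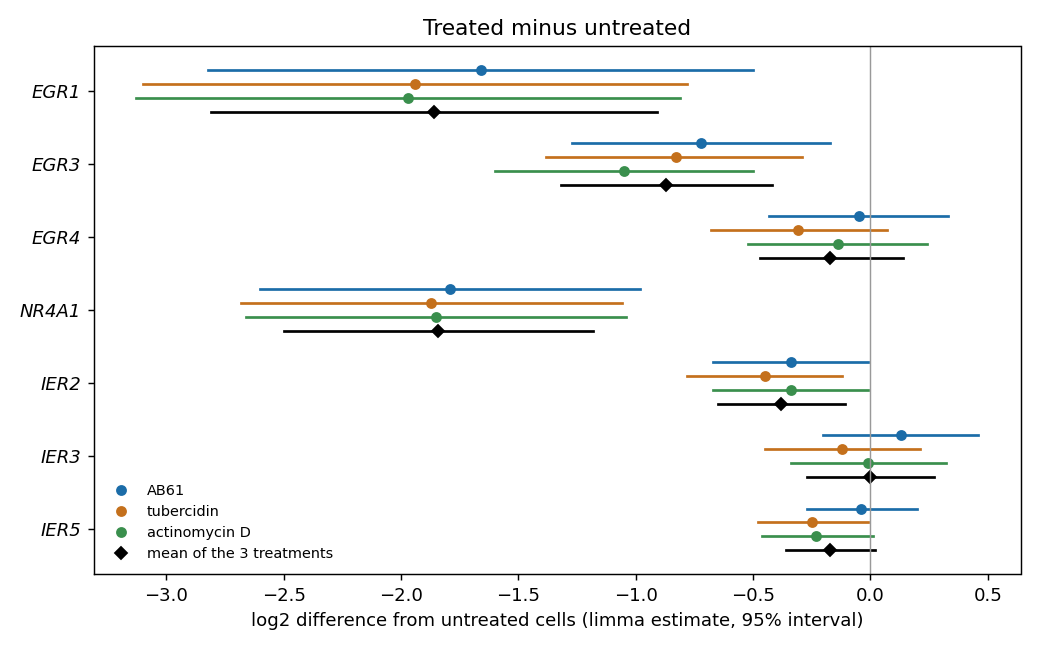
Treated minus untreated level (horizontal axis, log2) for each gene and each treatment as coloured points, and for the mean of the 3 treatments as black diamonds; lines are limma 95% intervals. The intervals of EGR1, EGR3 and NR4A1 lie below 0 for all 3 treatments, whereas those of EGR4 and IER3 include 0. For EGR1, EGR3 and NR4A1 the intervals use a spread shared by all groups and are too narrow.

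For AB61, NR4A1 differed by -1.79 (SE 0.37, interval -2.60 to -0.98), 3.46-fold lower, with a limma adjusted p of 0.0768. Reading AB61 and untreated arrays as paired rests on the cut at a correlation of 0.1. With the replicate number as a block in the limma fit on all 12 arrays NR4A1 passed (adjusted p = 0.0173). That fit also blocks the groups not read as paired, and the block fitted on AB61 and untreated arrays alone gave 0.0679. It also passed without untreated replicate 1 (-2.28, adjusted p = 0.0246). EGR1 differed by -1.66 (interval -2.82 to -0.50, adjusted p = 0.234) and was -0.82 without untreated replicate 3. EGR3 differed by -0.72 (interval -1.27 to -0.17, adjusted p = 0.273) and was -0.37 without that array. The AB61 arrays of EGR1 and NR4A1 lay wholly below the untreated ones, as did those of 6.18% of all genes. IER3, at 0.13 (interval -0.20 to 0.46), was the only member with a higher mean than in untreated cells.

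For tubercidin, NR4A1 differed by -1.87 (interval -2.68 to -1.06, adjusted p = 0.0929), EGR1 by -1.94 (interval -3.10 to -0.78, adjusted p = 0.217) and EGR3 by -0.83 (interval -1.38 to -0.29, adjusted p = 0.265). All 3 passed without untreated replicate 1, with adjusted p-values of 0.0113, 0.0131 and 0.0174, whereas without replicate 3 the differences were -1.32, -1.11 and -0.49. EGR1, NR4A1 and EGR4 were separated from untreated arrays, as were 6.58% of all genes, although the highest tubercidin array of EGR4 was at 6.30 and the lowest untreated one at 6.31. IER2 differed by -0.45 (interval -0.78 to -0.12) and IER5 by -0.25 (interval -0.48 to -0.01).

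For actinomycin D, NR4A1 differed by -1.85 (interval -2.66 to -1.04, adjusted p = 0.101), EGR1 by -1.97 (interval -3.13 to -0.81, adjusted p = 0.209) and EGR3 by -1.05 (interval -1.60 to -0.50, adjusted p = 0.161). These 3 passed without untreated replicate 1, with adjusted p-values of 0.0112, 0.0147 and 0.0112, and were at -1.30, -1.13 and -0.70 without replicate 3. EGR1, EGR3 and NR4A1 were separated from the untreated arrays, as were 7.22% of all genes. EGR4 at -0.14, IER3 at -0.01 and IER5 at -0.23 had intervals that included 0.

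**Figure D4:**
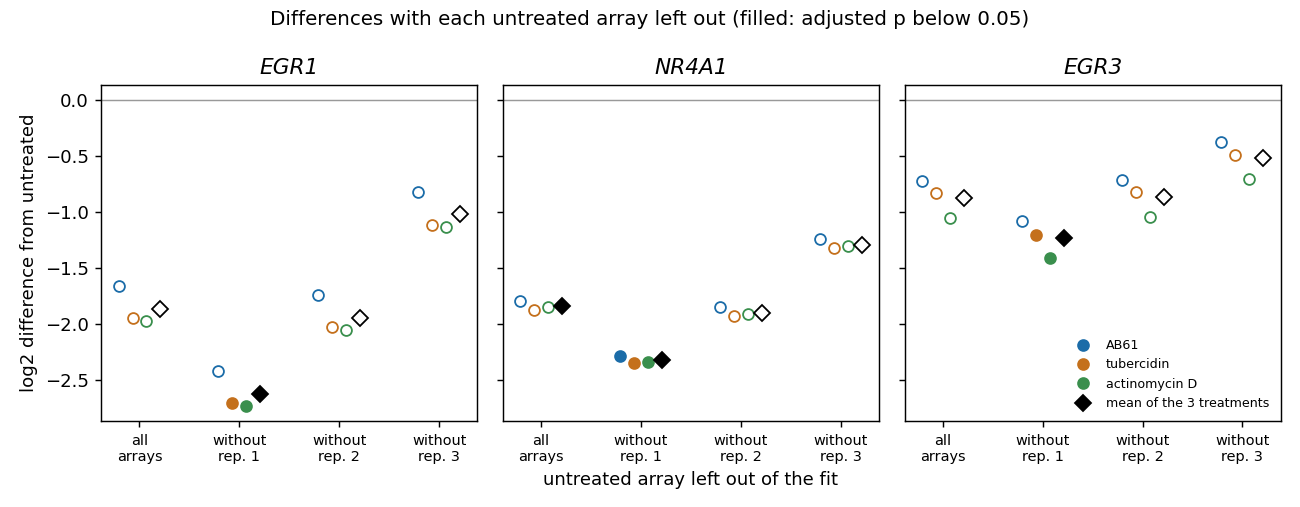
Treated minus untreated level (vertical axis, log2) of EGR1, NR4A1 and EGR3 with all arrays and with each untreated array left out of the fit; circles are single treatments, diamonds the mean of the 3, and filled symbols have an adjusted p under 0.05. Without untreated replicate 3 the mean difference of EGR1 shrinks from -1.86 to -1.02, and without replicate 1 it grows to -2.62.

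Set against the untreated array of the same number, as a description that does not assume pairing, the differences of these genes varied several-fold. For EGR1 the untreated arrays were at 7.49, 8.85 and 10.69 and the AB61 arrays at 7.35, 7.43 and 7.29. The variation of that difference thus lay mostly in the untreated arrays. EGR1 with AB61 was lower by -0.14, -1.43 and -3.40 for numbers 1, 2 and 3, and with actinomycin D by -0.69, -1.78 and -3.45. NR4A1 differed by -1.16, -1.47 and -2.74 with AB61, by -1.15, -1.78 and -2.67 with tubercidin and by -0.94, -1.88 and -2.73 with actinomycin D, so its smallest difference was -0.94. IER2 was higher by 0.10 with AB61 and by 0.11 with actinomycin D for number 1, and lower by -0.73 and -0.68 for number 3.

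In the main fit no difference between treatments was detected in these genes, but for EGR1 and NR4A1 that fit was a weak test. AB61 and tubercidin, which differ by the thienyl group, were given at unequal concentrations of equal IC50 multiple. AB61 minus tubercidin was 0.29 for EGR1 (interval -0.87 to 1.45), 0.08 for NR4A1 (interval -0.73 to 0.88) and 0.11 for EGR3 (interval -0.43 to 0.66). AB61 minus actinomycin D was 0.32 for EGR1 (interval -0.84 to 1.48) and 0.06 for NR4A1 (interval -0.75 to 0.87), and tubercidin minus actinomycin D was 0.03 for EGR1 (interval -1.13 to 1.19) and -0.01 for NR4A1 (interval -0.82 to 0.79). In the 3 direct limma comparisons 0 members and 0% of all genes passed the adjusted threshold. At an unadjusted p under 0.05 no member passed either, compared with 5.07%, 1.83% and 1.29% of all genes. Arrays did separate by narrow margins: those of AB61 lay above all actinomycin D arrays for EGR1, EGR3 and IER5 (2.38% of all genes) and above all tubercidin arrays for IER5 (3.75%), and those of tubercidin lay above all actinomycin D arrays for EGR3 (2.19%). The intervals allow differences of more than 1.5-fold either way for EGR1 and NR4A1. Their width includes the untreated spread through the shared estimate, although untreated arrays are no part of these comparisons. The SDs with AB61, tubercidin and actinomycin D were 0.07, 0.32 and 0.22 for EGR1 and 0.30, 0.28 and 0.19 for NR4A1. For these genes the direct intervals are therefore too wide, and the lack of calls does not show that the treatments acted alike. With array weights, whose estimation did not converge, a member did pass for AB61 against actinomycin D.

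The authors' deposited table gives the same log2 fold changes for these genes with unadjusted p-values. In the authors' deposited table NR4A1 had p-values of 0.000553, 0.000389 and 0.000417 for AB61, tubercidin and actinomycin D by the authors' limma analysis, ranking 88th, 48th and 54th of 22011 probe sets. EGR1 had 0.00778, 0.0027 and 0.00243 there, EGR3 had 0.0144, 0.00612 and 0.0012, and IER3 had 0.465, 0.489 and 0.954, in the authors' deposited table throughout.

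Over the 12 arrays the levels of EGR1, NR4A1 and EGR3 followed each other. Pearson's r was 0.97 for EGR1 with NR4A1, 0.96 for EGR1 with EGR3 and 0.94 for EGR3 with NR4A1, and IER2 gave 0.83 with EGR1, 0.83 with EGR3 and 0.79 with NR4A1. EGR1 gave 0.52 with IER5, 0.27 with IER3 and 0.26 with EGR4. The points share the untreated arrays that stand high, and the values are given as descriptions. Spearman's rho, which uses ranks only, was lower among EGR1, NR4A1, EGR3 and IER2. It was 0.82 for EGR1 with NR4A1, 0.71 for EGR1 with EGR3 and 0.64 for EGR3 with NR4A1. IER2 gave a rho of 0.49 with EGR1, 0.41 with EGR3 and 0.36 with NR4A1. Among the genes outside the set, those most like EGR1 were NEDD4L, a ubiquitin ligase (r = 0.98, and 0.90 without untreated replicate 3), FOS, an AP-1 subunit (0.98 and 0.92), and PFKFB4, a regulator of glycolysis (0.97 and 0.93). Those most like NR4A1 were PFKFB4 (0.98 and 0.95), CNNM2 (0.97 and 0.92) and ANKZF1 (0.97 and 0.93). Most like EGR3 were ACSS2, an acetyl-CoA synthetase (0.97 and 0.92), FOS (0.96 and 0.87) and FOSB (0.95 and 0.87). Their average treated minus untreated differences were -1.22 for PFKFB4, -0.85 for FOSB, -0.75 for ANKZF1, -0.74 for NEDD4L, -0.40 for FOS, -0.37 for CNNM2 and -0.31 for ACSS2. These genes were picked for a likeness over the same arrays, so their differences are a description with no test.

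Of 39 other immediate early genes, 36 were measured, and on average over the treatments 3 of them fell and none rose (0.443% and 0.604% of all genes). Their median difference was -0.28, against 0.01 over all genes, and 32 of the 36 had a fitted value below 0, as did 47.7% of all genes. FOSL2, an AP-1 subunit, was at 8.83, 9.44 and 9.58 in untreated cells. It ranged from 7.62 to 8.03 over the treated arrays, and fell by 1.39 on average (SE 0.14, adjusted p = 0.00189). It also fell with each treatment alone, by 1.40, 1.40 and 1.37 for AB61, tubercidin and actinomycin D (adjusted p = 0.0166, 0.00826 and 0.0146). ATF3, a stress-induced transcription factor, fell by 0.83 (SE 0.12, adjusted p = 0.0112), and passed with AB61 (-0.85, adjusted p = 0.0493) and actinomycin D (-0.97, adjusted p = 0.0345). RGS1, an inhibitor of G protein signalling, fell by 1.63 (SE 0.29, adjusted p = 0.0259). The average call of ATF3 was lost without untreated replicate 2 or 3 (adjusted p = 0.09 and 0.0859), and so was that of RGS1 (0.138 and 0.121; also 0.0567 without actinomycin D replicate 2 and 0.0513 without tubercidin replicate 1). With single treatments 2 of the 36 passed for AB61, 1 for tubercidin and 2 for actinomycin D, and 0 did so without untreated replicate 2 or without untreated replicate 3. With the replicate block 6 passed for AB61 on all arrays and 4 on AB61 and untreated arrays alone. RGS2, a relative of RGS1, was at -1.35 (adjusted p = 0.052) and CD69, an early activation antigen, at -1.01 (adjusted p = 0.262). FOSB was at 7.04, 7.85 and 8.24 in untreated cells, again lowest in replicate 1 and highest in replicate 3, and differed by -0.85 (adjusted p = 0.052).

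Calls among genes upstream of these were few and depended on the setting. Of the inducing factors and cofactors 12 of 17 were measured and 0 passed in limma on all arrays, 2 being lower and 3 higher at an unadjusted p under 0.05 in the average comparison (6.20% and 6.84% of all genes). In that comparison 1 passed under quantile normalization, with dim genes left out or without untreated replicate 1, AB61 replicate 3 or actinomycin D replicate 3, and 2 passed with array weights or the replicate block. The 4 with the largest differences were MEF2D at -0.54 (adjusted p = 0.0916), ELK3, an ETS partner of serum response factor, at 0.43 (adjusted p = 0.0555), CREB1 at 0.31 (adjusted p = 0.125) and SRF, serum response factor itself, at -0.30 (adjusted p = 0.284). Of 17 genes of the ERK and p38 routes 9 were measured, and 0 passed in limma, with 0 at an unadjusted p under 0.05 in that comparison. The largest difference there was 0.30 for the kinase RPS6KA3 (adjusted p = 0.457), followed by MAP2K6 at -0.18, RPS6KA1 at -0.10 and MAP2K3 at -0.09.

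Among corepressors and partners of these factors, all 7 measured, 1 passed in the average comparison (1.05% of all genes) and 0 for AB61 alone (0.169% of all genes; 1 gene of the list with the replicate block on all arrays). NAB2, which binds EGR proteins, represses their activity and is itself an EGR target, was at 7.05, 7.56 and 7.45 in untreated cells and ranged from 6.54 to 6.92 over the treated arrays. It fell by 0.58 (SE 0.12, adjusted p = 0.0391). NAB1 was at -0.46 (adjusted p = 0.228), HDAC7 at -0.43 (adjusted p = 0.129) and CABIN1 at -0.27 (adjusted p = 0.185). Of 13 EGR and NR4A target genes in T cells, a list that also holds NAB2, 1 fell and 1 rose on average (0.443% and 0.604% of all genes), and 0 passed for AB61 alone (1 with that block). CBLB, a ubiquitin ligase that restrains T cell activation, was at 8.22, 8.28 and 8.07 in untreated cells and at 8.49 to 9.06 over the treated arrays. It rose by 0.60 (SE 0.12, adjusted p = 0.043). IKZF2 was at 0.47 (adjusted p = 0.0622) and TNFSF10 at 0.42 (adjusted p = 0.285). Neither call held throughout. Without untreated replicate 2 or 3 NAB2 had adjusted p-values of 0.206 and 0.157, and CBLB had 0.0951, 0.15 and 0.174 without untreated replicates 1, 2 and 3. Leaving out single treated arrays also ended both calls, with adjusted p-values between 0.0575 and 0.0731 for NAB2 and between 0.058 and 0.0882 for CBLB. No values are given here for EGR2, NR4A2, NR4A3 and IER5L, which had no probe set of a single symbol.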

How the data were processed

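RNA of 12 arrays, 3 per group, was used. RMA, oligo and limma are named per the submitters' processing notes, without versions. The deposited levels are log2 RMA values of 22011 probe sets. The authors' deposited tables also give an unadjusted p-value per probe set, per the file headers. The supplied annotation gave 1 symbol to 14432 probe sets, several to 2408 and none to 5171. For 197 genes with several probe sets the brightest was used, giving 14232 genes.

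Limma 3.58.1 (R 4.3.3) was fitted on all arrays and 4 groups, with 8 residual and 4.91 prior degrees of freedom, two-sided p-values and a threshold of 0.05. The contrasts covered each treatment and their mean against untreated cells and the 3 direct comparisons. The fit was tested on simulated data in which each gene had the same spread in all groups. That test does not cover genes such as EGR1 and NR4A1, whose untreated arrays spread more. The number of arrays limits precision, and the median SE of a log2 difference was 0.13 for AB61 against untreated cells. Array correlations ranged from 0.977 to 0.993, so no array copied another (smallest median absolute difference 0.108). The labels call the replicates biological without saying whether cultures were separate, so p-values measure the spread between these arrays, which may be technical.

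Arrays of the same number were checked as pairs by correlating deviations from group means. Untreated and AB61 arrays gave 0.158, 0.355 and 0.268 and were read as paired. Every other pair of groups had a value under 0.1, the lowest -0.194. AB61 and actinomycin D arrays gave 0.596, -0.056 and 0.498, so 2 of their values exceeded all of those for untreated and AB61 arrays. The labels state no pairing. Untreated and tubercidin arrays gave 0.086, 0.241 and 0.421, and untreated and actinomycin D arrays 0.204, 0.046 and 0.305. These were all above 0, so reading only AB61 as paired with untreated arrays depends on that cut.

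The members and lists were chosen with earlier results of these data known. The genes named are the members, the up to 4 genes per list with the largest average difference, and for members ranging over 1 log2 unit the 3 genes with the highest r. FOSL2 levels and single-treatment values, and ATF3, are named because they passed. Figures were drawn in Python 3.11.15 with matplotlib 3.10.9. Alternatives covered scaling, dim genes, probe sets, variance model, array weights, samples, the replicate block and each array left out. The permutation tests under other scalings and with arrays left out were added after the data were seen.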

Additional observations from a re-analysis of the deposited data

How the results depend on the processing

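The decreases of EGR1, EGR3 and NR4A1 against untreated cells kept their direction for every treatment under every alternative run, while their calls did not. For EGR1 and NR4A1 all treated arrays lay below all untreated ones, so leaving out an array could not have changed the direction. The number of the 7 genes past the threshold, 0 for each treatment and 1 for their mean, became 1 for AB61 and 2 for the mean when dim genes were left out (which drops EGR3 and EGR4), and 1 for AB61, 2 for actinomycin D and 1 for AB61 against actinomycin D with array weights, whose estimation stopped before it converged. With the replicate block on all 12 arrays it became 1 for AB61, 1 for tubercidin, 2 for actinomycin D and 3 for the mean (also 3 with the block fitted on the groups compared), and it was 0 for the mean with all probe sets tested. The block changed no other count of the 7 genes called. Of the inducing factors 1 passed for the mean under quantile normalization or with dim genes left out, and 2 with array weights or the block. With each array left out it ranged from 0 to 1 for AB61, 0 to 3 for tubercidin, 0 to 3 for actinomycin D and 0 to 4 for the mean, and was 0 throughout for the direct comparisons. The cause was not tested, except that fewer arrays or more probe sets enter by construction.

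The number of all genes called for the mean, 149, was 75 with median centring, 25 with ribosomal protein centring, 55 with all probe sets, 1088 with array weights and 517 with the block, and 6 to 263 with arrays left out, 6 without untreated replicate 2 and 8 without untreated replicate 3. For AB61 24 genes were called, with 193 under the block on all arrays and 0 to 98 with arrays left out. For tubercidin 13 were called (116 under that block, 2 to 33 with arrays left out), and for actinomycin D 17 (130 under that block, 1 to 25 with arrays left out).

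Centring on 26 ribosomal protein genes moved the median of all genes to 0.17 for AB61, 0.09 for actinomycin D and 0.10 for the mean. It turned the sign of small differences to 0.08 for EGR4 and 0.09 for IER5 (AB61), 0.08 for IER3 (actinomycin D), 0.09 for IER3 and 0.0046 for MAP2K3 (mean), 0.03 for IER2 (AB61 minus actinomycin D) and -0.01 for EGR1 (tubercidin minus actinomycin D), and gave IER5 a control SD of 0.26. Repeated quantile normalization turned IER3 to 0.01 (actinomycin D) and 0.02 (mean) and IER2 to 0.0031 (AB61 minus actinomycin D). Array weights turned EGR4 to 0.07 and IER3 to 0.30 (actinomycin D), IER3 to 0.11 (mean), EGR3 to -0.03 and NR4A1 to -0.24 (AB61 minus tubercidin), EGR4 to -0.19, NR4A1 to -0.11, IER2 to 0.0044 and IER3 to -0.22 (AB61 minus actinomycin D), and NR4A1 to 0.14 (tubercidin minus actinomycin D). The exact permutation p of IER2 was 0.109 under ribosomal protein centring, and that of IER3 was 0.636 there and 0.923 under quantile normalization, with the sign turned.

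With single arrays left out, differences that changed sign ranged from -0.13 to 0.11 for IER3 (mean), -0.14 to 0.10 for IER3 (actinomycin D), -0.0045 to 0.24 for IER3, -0.25 to 0.08 for EGR4 and -0.09 to 0.01 for IER5 (AB61), -0.06 to 0.25 for NR4A1 (AB61 minus tubercidin), -0.04 to 0.23 for NR4A1, -0.06 to 0.08 for IER2 and -0.11 to 0.21 for EGR4 (AB61 minus actinomycin D), and -0.17 to 0.12 for NR4A1, -0.08 to 0.08 for IER5, -0.14 to 0.17 for EGR1 and -0.21 to 0.01 for IER3 (tubercidin minus actinomycin D). The exact permutation p then ranged from 0.00606 to 0.0182 for EGR1 and for NR4A1, 0.0182 to 0.0727 for EGR3, 0.0848 to 0.836 for EGR4, 0.0182 to 0.109 for IER2, 0.382 to 0.988 for IER3 and 0.0545 to 0.309 for IER5.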
